A study of Mus musculus with 3 samples.

Results

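The 9 genes described here, *Six3*, *Six6*, *Otx2*, *Lhx2*, *Rax*, *Hesx1*, *Emx2*, *Pax6* and *Nkx2-1*, encode transcription factors of the developing forebrain and eye field. They were chosen by name, and all 9 were found among the 24062 gene symbols of the count tables. RNA-Seq compared the rostrum, the front part of the head, of E9 embryos of 18 to 22 somites. The *tuft* embryos were homozygous for a nonsense mutation in *Tet1*, which encodes an enzyme that oxidizes methylated cytosine, and had a neural tube defect. The wild type was the 3H1 Balb strain in which *tuft* arose. RNA of 3 embryos was pooled per genotype, and 1 library was analyzed for each, so no value below has a replicate error and the genotype cannot be told apart from the library or the dissection. GEO's labels name 2 *tuft* samples but the counts have 1 *tuft* column, which could stem from either or from both.

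All 9 proteins bind DNA through a homeodomain. Around the time the anterior neural tube closes, they divide the front of the neural plate into fields. *Six3*, *Hesx1* and *Otx2* mark the anterior plate and keep it from more posterior identities. *Rax*, *Six3*, *Six6*, *Lhx2* and *Pax6* act together in the eye field, from which the optic vesicles grow out. *Emx2* and *Pax6* later pattern the dorsal telencephalon as opposing gradients, and *Nkx2-1* marks the hypothalamus and the ventral telencephalon. Several of them are also active outside the brain, *Pax6* and *Six3* in the lens, *Hesx1* in the pituitary primordium, *Otx2* in the early visceral endoderm and *Nkx2-1* in the thyroid and lung primordia.

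The counts on genes summed to 6433067 in *tuft* and 14251942 in wild type, a depth that differed 2.22-fold, and 11795 and 16914 genes had a count. Levels are given as counts per 1000000 gene counts (CPM) before any further factor. A gene without a count could still have 3, equal to 0.466 CPM in the *tuft* and 0.210 CPM in the wild-type library. Zeros were found in the *tuft* library at high wild-type counts too: 542 of the 10121 genes that reached 100 counts in wild type had none in *tuft*. The reverse was not counted. *Tet1* itself was counted 32 times in *tuft* and 435 times in wild type, 0.214 times the wild-type level (0.145 to 0.307). Fold changes are *tuft* over wild type after normalization by the trimmed mean of M-values (TMM), with a factor ratio (*tuft* over wild type) of 0.761, so a fold change is not the plain quotient of the CPM. Each is given with a 95% Clopper-Pearson interval that covers counting error only. A gene was called where this whole interval lay above 2 or under 0.5. No test across libraries was possible.

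*Emx2*, *Nkx2-1* and *Six3* were called higher in *tuft*, *Rax* and *Hesx1* were called lower, and *Six6*, *Otx2*, *Lhx2* and *Pax6* were not called. Among all 13979 genes whose counts added up to 10 or more over both libraries, 17.4% were called higher and 29.8% lower, so that 47.2% were called in either direction. The 5 calls among 9 factors are close to that share, and say nothing particular about the set. The median log2 fold change of the 9 was 0.45, against -0.55 for all genes tested. The latter covers genes of all levels and was not matched to the level of the members. Added together, the 9 genes made up 963 CPM in *tuft* and 628 CPM in wild type, a TMM-normalized fold change of 2.01 for their sum. With a factor ratio of 0.761, the sum of all genes also lies above 1 after TMM, which holds for every sum given below.

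**Figure D1:**
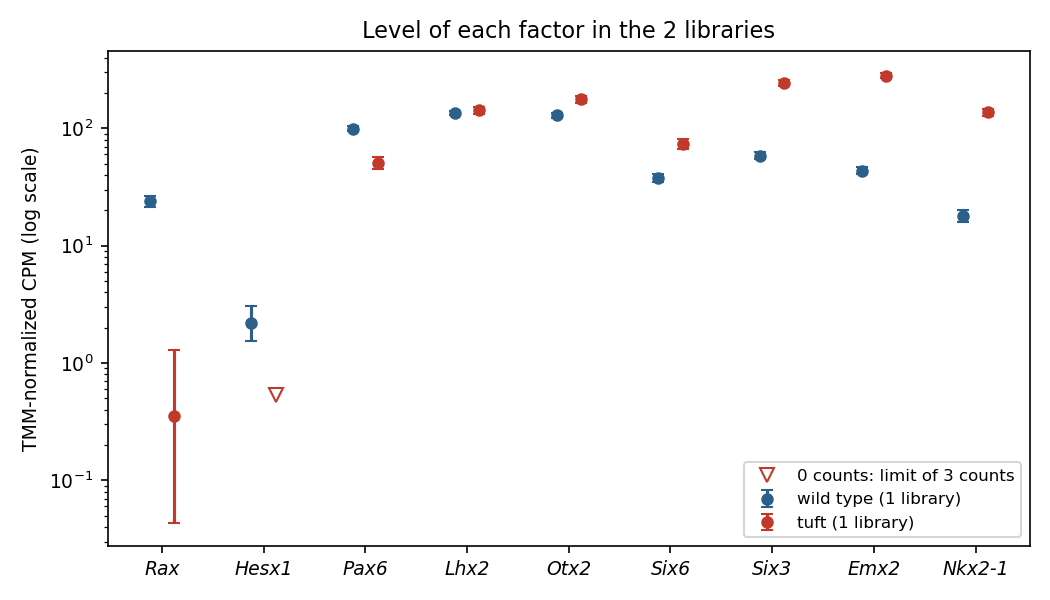
TMM-normalized CPM (log scale) of each factor in the wild-type and the *tuft* library, ordered by fold change. Points are single libraries, bars are 95% Poisson intervals for counting error, and the open triangle is the limit of 3 counts for *Hesx1*, which had 0 counts in *tuft*. *Rax* and *Hesx1* lie below wild type on the left, and *Six3*, *Emx2* and *Nkx2-1* lie above it on the right.

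*Emx2* (chromosome 19 of GRCm38.p6, 59458690 to 59465357, plus strand), a factor of the dorsal telencephalon, was counted 1575 times in *tuft* and 713 times in wild type. The shallower library thus held more counts of it than the deeper one. Its level was 245 CPM in *tuft* and 50.0 CPM in wild type, with a fold change of 6.43 (5.88 to 7.04). Of the 2795 other genes with a wild-type count within 1.5-fold of its own, 54 (1.93%) had at least as many counts in *tuft*. The antisense gene *Emx2os*, which lies 55 bases away, was counted 13 and 25 times.

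*Nkx2-1* (chromosome 12, 56531935 to 56536908, minus strand), which specifies the hypothalamus and the ventral telencephalon, had the highest fold change of the set. It was counted 766 times in *tuft* and 295 times in wild type, or 119 and 20.7 CPM, a fold change of 7.56 (6.60 to 8.68). Among 2403 genes of like wild-type count, 53 (2.21%) reached its count in *tuft*. The noncoding gene E030019B13Rik, which lies 2515 bases from *Nkx2-1*, had no read in *tuft*, against 80 in wild type, and the upper bound of its fold change was 0.137. Zeros were common in *tuft*, at 54.9% of genes with 30 to 43 wild-type counts and 542 of the 10121 with 100 or more. The share at the level of E030019B13Rik was not computed. *Nkx2-1* is also a gene of the thyroid and lung primordia. Of the 10 foregut and thyroid markers, 7 had enough counts, 1 was called higher and 1 lower, against 17.4% and 29.8% of all genes tested. The higher one was *Pax8*, a thyroid factor that is also active at the midbrain-hindbrain boundary, with 107 and 65 counts and a fold change of 4.79 (3.49 to 6.63). *Hhex*, a factor of the anterior endoderm and of endothelium, was counted 0 times in *tuft* and 62 times in wild type. The upper bound of its fold change was 0.179. The summed level of these markers was 61.9 CPM in *tuft* and 67.3 CPM in wild type. The TMM-normalized fold change of the sum was 1.21, but the sum of all genes also lies above 1 after TMM. *Pyy* and *Cer1* were at 0 in both libraries, and the part of foregut tissue in the value of *Nkx2-1* was not tested.

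*Six3* (chromosome 17, 85613608 to 85626191, plus strand), a repressor of WNT signaling in the anterior plate, was counted 1361 times in *tuft* and 958 times in wild type. These are 212 and 67.2 CPM, a fold change of 4.14 (3.81 to 4.50). Among 2613 genes of like wild-type count, 116 (4.44%) had as many counts in *tuft*. The noncoding gene *Six3os1* overlaps the annotated span of *Six3* on the other strand, and since the sources used here do not state whether counting was by strand, reads of the pair may not be told apart. *Six3os1* was counted 583 times in *tuft* and 1920 times in wild type, which gave a fold change of 0.884 (0.805 to 0.971), and was not called. The gene and its overlapping partner thus differed in their fold change by more than counting error.

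At the other end, *Rax* (chromosome 18, 65934639 to 65939089), which is required for the eye field to form optic vesicles, was counted 2 times in *tuft* and 389 times in wild type. At an equal TMM-normalized level the *tuft* library would have held 134 counts. The fold change was 0.0150 (0.00181 to 0.0544), the lowest of the set. Such losses were not rare in this library, however. Among 2612 genes of like wild-type count, 198 (7.58%) had 2 or fewer counts in *tuft*, and 5.72% of all genes tested had a lower log2 fold change than *Rax*.

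*Hesx1* (chromosome 14, 26994419 to 27002329), a repressor of the anterior plate and the pituitary primordium, was counted 0 times in *tuft* and 36 times in wild type, or 2.53 CPM. It was 4.12-fold lower when the *tuft* library is given the limit of 3 counts, and the upper bound of its fold change was 0.314. It was the weakest member in wild type, and 12.4 counts would have been found in *tuft* at an equal TMM-normalized level. Of 1289 genes of like wild-type count, 711 (55.2%) also had none in *tuft*, and 59.1% were called lower.

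*Pax6* (chromosome 2, 105668896 to 105698410) is a factor of the eye field, lens and dorsal forebrain. It was counted 285 times in *tuft* and 1614 times in wild type, or 44.3 and 113 CPM. Its fold change was 0.514 (0.452 to 0.584), an interval that lies under 1 and crosses the limit of 0.5. With library totals alone, with totals that leave out the genes of highest count, or scaled to a list of neural progenitor genes, *Pax6* was called lower. Among 1996 genes of like wild-type count, 29.7% had as few counts in *tuft*. *Pax6os1* and *Elp4* overlap the annotated span of *Pax6* on the other strand. *Pax6os1* had 10 and 8 counts, few beside those of *Pax6*, and *Elp4*, a subunit of the Elongator complex, was counted 259 times in *tuft* and 412 times in wild type.

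The remaining 3 members were not called either. The log2 fold change of *Six6*, 0.96, was about the size of that of *Pax6*, -0.96. *Six6*, the paralog of *Six3* in the eye field and hypothalamus (chromosome 12, 72939882 to 72944899), was counted 414 times in *tuft* and 621 times in wild type, which gave a fold change of 1.94 (1.71 to 2.20). *Otx2* (chromosome 14, 48656781 to 48667644), needed for all of the forebrain and midbrain, was counted 990 and 2104 times, with a fold change of 1.37 (1.27 to 1.48). *Lhx2* (chromosome 2, 38339271 to 38369737), a LIM homeodomain factor of the optic vesicle and cortex, was counted 802 and 2223 times, with a fold change of 1.05 (0.968 to 1.14). The direction of *Lhx2* turned with 3 of the 5 other scalings and that of *Otx2* with 1, so neither has a direction here.

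**Figure D2:**
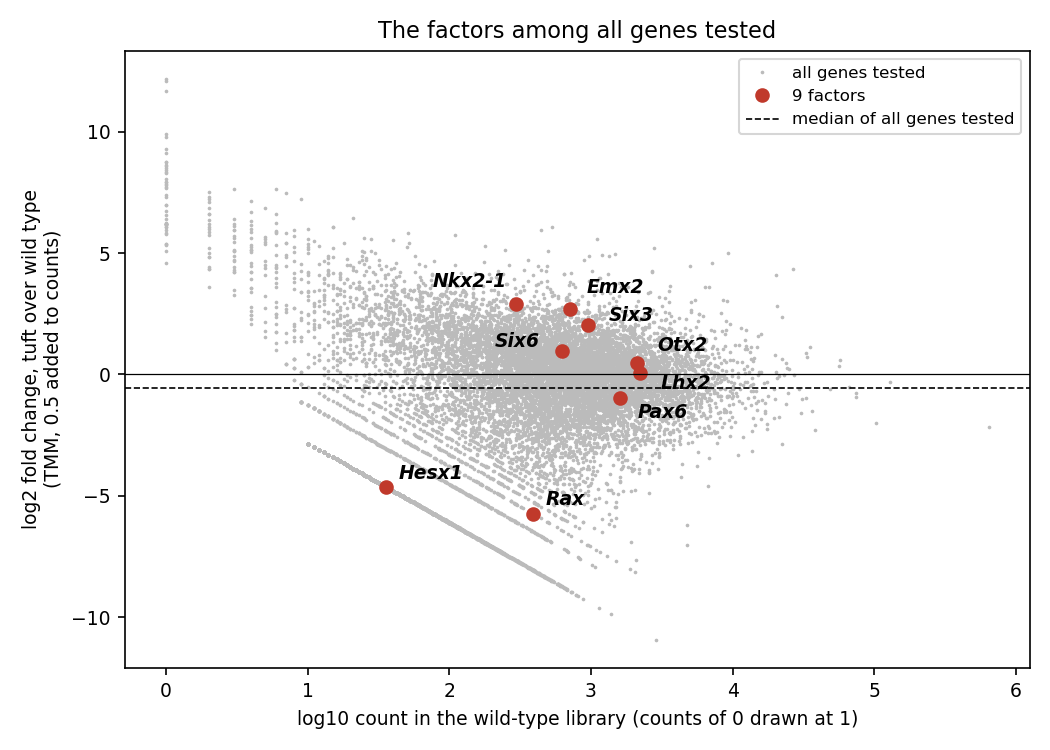
Log2 fold change of *tuft* over wild type (TMM, 0.5 added to counts) against the log10 count in the wild-type library for all 13979 genes tested (grey) and the 9 factors (red). The dashed line is the median of all genes at -0.55. *Hesx1* lies on the line of genes with 0 counts in *tuft*, whose plotted height is set by the 0.5 added, and *Nkx2-1*, *Emx2* and *Six3* lie in the upper part of the genes at their level.

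The choice of scaling moves all 9 fold changes together, so the proportions among the factors were compared within each library, where no scaling enters. Of the summed counts of the 9 genes, *Emx2* held 25.4% in *tuft* (24.3 to 26.5, exact binomial) and 7.96% in wild type (7.41 to 8.54). *Six3* held 22.0% in *tuft* and 10.7% in wild type. *Nkx2-1* held 12.4% and 3.29%. Since shares add up to a fixed sum, the share of a gene can be lower where its fold change is not, as for *Lhx2* and *Otx2*. *Pax6* held 4.60% in *tuft* (4.09 to 5.15) and 18.0% in wild type (17.2 to 18.8), and *Lhx2* 12.9% and 24.8%. *Otx2* held 16.0% and 23.5%. *Rax* held 0.0323% and 4.34%, and *Hesx1*, at 0 counts in *tuft*, had an exact binomial upper bound of 0.0595% there, against a share of 0.402% in wild type. The share of *Six6* was 6.68% (6.07 to 7.33) and 6.94% (6.42 to 7.48), which did not differ beyond counting error.

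Ratios between pairs of factors need no normalization either. In wild type there were 0.442 counts of *Emx2* for each count of *Pax6*, and in *tuft* 5.53, so this ratio was 12.5 times as high in *tuft* (10.7 to 14.6, conditional exact interval). The ratio of *Emx2* to *Nkx2-1* was 2.06 in *tuft* and 2.42 in wild type, a quotient of 0.851 whose interval reached 1 (0.722 to 1.00). The paralogs *Six3* and *Six6* stood at 3.29 to 1 in *tuft* and 1.54 to 1 in wild type, a quotient of 2.13 (1.83 to 2.48). *Otx2* and *Lhx2* stood at 1.23 and 0.946, a quotient of 1.30 (1.17 to 1.46). These are 4 of 36 pairs, which share genes and are not independent, and other genes of these libraries were not compared in this way.

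**Figure D3:**
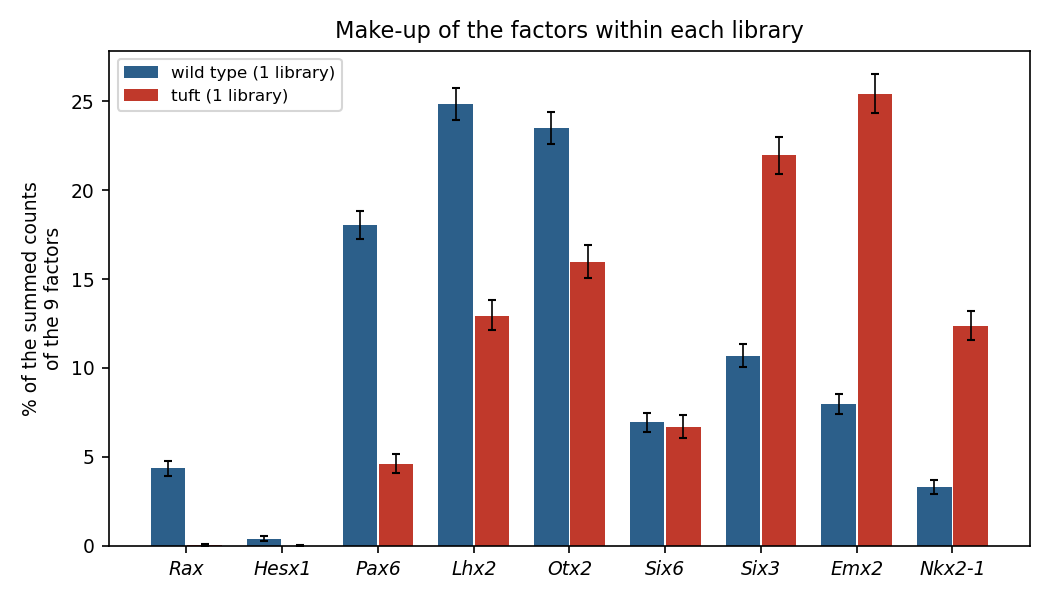
Share of each factor in the summed counts of the 9 factors within the wild-type library (8953 counts) and the *tuft* library (6195 counts), with 95% exact binomial intervals for counting error. In wild type *Lhx2*, *Otx2* and *Pax6* held the most counts, and in *tuft* *Emx2*, *Six3* and *Otx2* did.

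Levels were compared between genes per kilobase of the longest annotated transcript. In wild type the order of the level per kilobase was *Lhx2* (68.1 CPM per kb), *Otx2* (64.6), *Emx2* (19.3), *Rax* (16.4), *Pax6* (13.5), *Six3* (12.6), *Six6* (11.0), *Nkx2-1* (7.31) and *Hesx1* (2.21). The counting intervals of *Lhx2* and *Otx2* overlapped, as did those of *Emx2* and *Rax*, of *Pax6* and *Six3*, and of *Six3* and *Six6*. In *tuft* it was *Emx2* (94.2 CPM per kb), *Otx2* (67.4), *Lhx2* (54.4), *Nkx2-1* (42.0), *Six3* (39.6), *Six6* (16.3), *Pax6* (5.27), *Rax* (0.186) and *Hesx1* (0). The intervals of *Nkx2-1* and *Six3* overlapped, and so did those of *Rax* and *Hesx1*. The order depends on the length used: with the median transcript length, *Pax6*, whose longest transcript has 8401 bases, followed directly after *Lhx2* and *Otx2* in wild type, and *Otx2* and *Lhx2* were above *Emx2* in *tuft*. *Nkx2-1* and *Hesx1* in wild type and *Rax* and *Hesx1* in *tuft* kept their places at the bottom.

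TET1 acts on methylated cytosine in CpG dinucleotides, so the CpG content of the promoters is given here as background, without a measure of methylation. In the 250 bases before the RefSeq start, 13 annotated starts of 8 of the factors had 2 to 25 CpGs, against a median of 6 in 32851 promoters. For the called genes, the 250 bases before an annotated start, from RefSeq (GRCm38.p6), are shown 5′ to 3′ on the strand of the gene, with each CpG in capitals. The windows of *Six3* and *Hesx1* lie inside the annotated span of the gene, so each precedes an internal start and not the outermost one. *Rax* is not shown.

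Emx2, chr19:59458440-59458689, plus strand, higher in *tuft*: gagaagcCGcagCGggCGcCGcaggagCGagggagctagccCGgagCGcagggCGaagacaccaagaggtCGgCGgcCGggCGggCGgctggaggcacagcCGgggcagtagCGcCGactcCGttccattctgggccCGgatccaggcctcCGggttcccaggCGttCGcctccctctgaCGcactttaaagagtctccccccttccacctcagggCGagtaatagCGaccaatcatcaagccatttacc

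Nkx2-1, chr12:56536909-56537158, minus strand, higher in *tuft*: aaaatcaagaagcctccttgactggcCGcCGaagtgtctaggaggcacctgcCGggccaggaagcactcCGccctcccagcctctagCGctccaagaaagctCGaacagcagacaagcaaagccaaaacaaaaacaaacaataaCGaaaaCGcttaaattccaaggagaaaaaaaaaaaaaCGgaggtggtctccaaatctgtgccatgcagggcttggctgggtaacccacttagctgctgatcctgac

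Six3, chr17:85620584-85620833, plus strand, higher in *tuft*: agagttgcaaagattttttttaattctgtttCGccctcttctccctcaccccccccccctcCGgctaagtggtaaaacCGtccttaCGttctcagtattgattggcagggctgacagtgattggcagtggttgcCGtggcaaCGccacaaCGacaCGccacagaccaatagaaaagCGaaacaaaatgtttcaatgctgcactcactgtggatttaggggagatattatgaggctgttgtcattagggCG

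Hesx1, chr14:27000112-27000361, plus strand, no count in *tuft*: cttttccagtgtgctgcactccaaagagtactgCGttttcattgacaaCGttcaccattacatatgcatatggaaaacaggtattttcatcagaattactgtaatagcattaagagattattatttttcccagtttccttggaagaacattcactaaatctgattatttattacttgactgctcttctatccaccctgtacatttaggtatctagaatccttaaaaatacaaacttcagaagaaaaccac

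The promoters of the 3 genes that were higher in *tuft* differed among themselves. That of *Emx2* had 24 CpGs in the window and 67.2% GC, with an observed-to-expected CpG ratio of 0.850. That of *Six3* had 10 CpGs and a ratio of 0.673, and that of *Nkx2-1* had 9 CpGs and a ratio of 0.564. The window of *Hesx1*, which precedes an internal start, had 2 CpGs, 34.0% GC and a ratio of 0.291, the lowest of the 13. The homeodomain motif TAATTA, its own reverse complement, was found in 2 of the 4 windows of *Otx2* and in no window of the other 7 factors, against 4.84% of all promoters. The OTX motif TAATCC, on either strand, was found in 1 window of *Otx2*, one of those with TAATTA, and in 6.25% of all promoters.

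Further forebrain genes were taken by list, and each count stands against the 17.4% of all genes tested that were called higher and the 29.8% called lower. Of 16 other eye field and optic vesicle genes with enough counts, 6 were called lower and 1 higher, and the median log2 fold change was -1.98, or -1.30 with counts of 3 or fewer set to 3. *Aldh1a3*, a retinoic acid synthase of the eye and nasal region, was counted 246 times in *tuft* and 2561 times in wild type, which gave a fold change of 0.280 (0.244 to 0.319). *Tbx3*, a T-box factor of the dorsal optic vesicle and ventral hypothalamus, was counted 28 and 359 times, with a fold change of 0.227 (0.149 to 0.334). The one called higher was *Bmp4*, which signals in the dorsal optic vesicle and at the roof of the forebrain, with 407 and 320 counts and a fold change of 3.70 (3.19 to 4.30). The other 9 genes were not called.

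Of 18 other genes of the telencephalon and rostral forebrain, 7 were called higher and 2 lower. Their median was 0.98, against -0.55 for all genes tested, which were not matched for level. *Nr2f1*, a nuclear receptor that patterns the cortex, was counted 1491 times in *tuft* and 1552 times in wild type, which gave a fold change of 2.80 (2.60 to 3.01). *Lhx5*, a LIM homeodomain factor of the anterior forebrain, was counted 658 and 767 times, with a fold change of 2.50 (2.25 to 2.78). The 2 called lower were *Zic1*, a zinc finger factor of the dorsal neural tube, with a fold change of 0.390 (0.329 to 0.460), and *Fgf15*, a growth factor of the forebrain, with 0.269 (0.214 to 0.335). Of 10 genes of the hypothalamus, diencephalon and floor plate, 6 were called higher and 1 lower, with a median of 1.59. *Tcf7l2*, a WNT effector of the diencephalon, was counted 856 and 587 times, with a fold change of 4.25 (3.82 to 4.72), and *Dbx1*, a homeodomain factor, was counted 637 and 467 times, with a fold change of 3.97 (3.52 to 4.49). *Olig2*, a factor of the ventral neural tube, was counted 0 times in *tuft* and 317 times in wild type. The upper bound of its fold change was 0.0341. No test compared the 3 lists with each other or with all genes, and nothing particular to a list is read from these counts.

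The nearest relatives of the members were taken by list as well. Of 8 paralogs with enough counts, 2 were called higher and 1 lower. Among all genes tested, 17.4% were called higher and 29.8% lower, and nothing particular to the paralogs is read from these counts. *Emx1* was counted 41 times in *tuft* and 27 times in wild type, which gave a fold change of 4.42 (2.66 to 7.47), in the direction of *Emx2*. *Six2*, a factor of head mesenchyme and kidney, was counted 0 times in *tuft* and 157 times in wild type. The upper bound of its fold change was 0.0692.

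In pooled tissue, fewer cells of a type and less RNA per cell cannot be told apart, so the levels of other tissues stand beside these values. The calls in each list stand against 17.4% called higher and 29.8% called lower among all genes tested. The pan-neural progenitor list summed to 1056 CPM in *tuft* and 924 CPM in wild type, and of its 12 genes 3 were called higher and 2 lower. *Sox1*, with 902 and 832 counts, and *Hes5*, with 415 and 331, were called higher, and *Pou3f3*, with 10 and 150, and *Fabp7*, with 0 and 100, lower. Scaled to this list, the log2 fold change was 2.33 for *Nkx2-1*, 2.10 for *Emx2* and 1.46 for *Six3*, and all 3 were still called higher. Of the 10 midbrain and midbrain-hindbrain genes, 4 were called higher and 3 lower. The list summed to 133 CPM in *tuft* and 90.2 CPM in wild type, a TMM-normalized fold change of 1.94. The homeodomain factors *Dmbx1*, with 236 and 219 counts, and *Lmx1b*, with 172 and 71, were called higher, while *Pax3*, a factor of the dorsal neural tube with 31 and 295 counts, and *Wnt1*, a ligand of the dorsal midbrain with 0 and 57, were called lower. *En1*, with 70 and 2 counts, and *En2*, with 31 and 3, were also called higher, and *Pax5*, with 0 and 40, lower. Of the 8 hindbrain genes, 7 were at 0 in *tuft* and 1 at 0 in wild type, and the list summed to 6.22 and 4.63 CPM, so both libraries held little hindbrain RNA.

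Markers of tissue around the brain were found in both libraries. Their calls too stand against 17.4% called higher and 29.8% called lower among all genes tested. Head mesenchyme and neural crest markers summed to 698 CPM in *tuft* and 505 CPM in wild type, with 3 of 14 called higher and 2 lower. The crest factor *Sox10*, with 1277 and 334 counts, and the mesenchyme factor *Twist1*, with 1101 and 1022, were called higher, and *Pdgfra*, with 69 and 711, and *Prrx2*, with 0 and 301, lower. Those of surface ectoderm and lens, where *Pax6* and *Six3* are also active, summed to 1031 and 790 CPM, with 2 of 9 called higher and 1 lower, and the lens gene *Foxe3* had 0 and 9 counts. The keratin gene *Krt8*, with 2158 and 2003 counts, and *Dlx5*, with 426 and 313, were called higher, and the cadherin gene *Cdh1*, with 162 and 2057, lower. The visceral endoderm and yolk sac list summed to 293 CPM in *tuft* and 2442 CPM in wild type, with 10 of 12 called lower, among them *Apoa1* (93 and 6655 counts) and *Rbp4* (22 and 4782), and with *Apoa4* and *Apoc2* at 0 in *tuft*. *Otx2* and *Hesx1* are active in early visceral endoderm; *Hesx1* was called lower, with 0 and 36 counts, and *Otx2* was not called. Endothelial markers summed to 165 and 403 CPM, with 3 of 8 called lower and 1 higher and *Pecam1* at 0 in *tuft*. *Cdh5* (161 and 1376 counts) and *Kdr* (117 and 1237) were lower and *Emcn* (197 and 136) higher. Blood markers summed to 35529 and 3212 CPM, with 3 of 8 called in each direction, *Hba-x* (118762 and 20173 counts) and *Hbb-y* (103925 and 9335) higher and *Alas2* (35 and 473) and *Gata1* (0 and 125) lower. The sum of all genes itself lies above 1 after TMM. On this scale, the sums of the lists had a fold change of 1.82 for head mesenchyme and neural crest and 1.72 for surface ectoderm and lens. It was 0.158 for visceral endoderm and yolk sac, 0.539 for endothelium and 14.5 for blood. The part of these tissues in the values of the 9 factors was not tested.

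**Figure D4:**
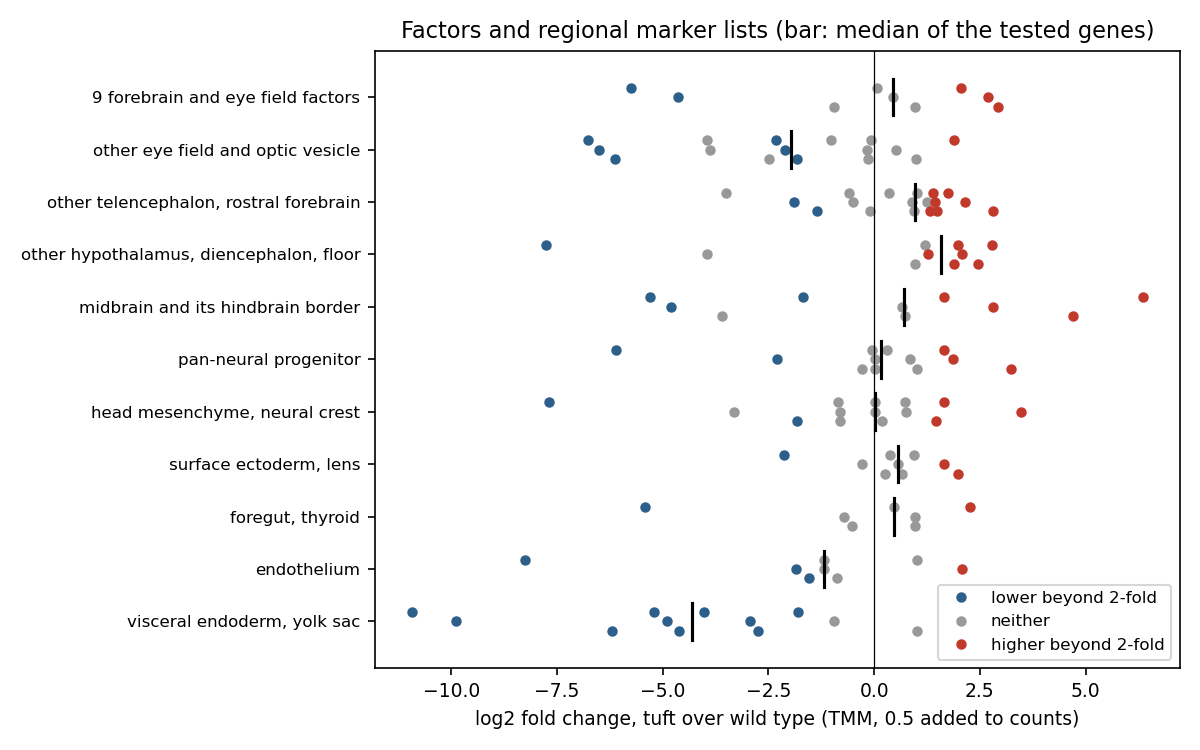
Log2 fold change (TMM, 0.5 added to counts) of the 9 factors and of the genes of 10 regional and tissue lists with at least 10 counts. Each point is a gene, colored by its call, and the bar is the median of the list, 0.45 for the 9 factors, -1.98 for other eye field genes and 1.59 for other genes of the hypothalamus, diencephalon and floor plate. Points at the far left are genes with 0 or few counts in *tuft*, whose place depends on the 0.5 added.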

How the data were processed

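Poly-A RNA of dissected rostrums was sequenced with an Ion Proton instrument, as single-end reads. Per the labels and the study's methods, the authors trimmed reads with PRINSEQ, aligned them to mm10 with TopHat2 2.0.14 and Bowtie2 2.2.5 and deposited raw counts per gene symbol from htseq-count. The version, overlap mode and strand setting are not given in the sources used here. The 5 summary lines were left out of totals. Non-unique alignments made up 59.2% of the *tuft* entries and 51.4% of the wild-type entries.

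TMM factors came from edgeR 4.0.16 in R 4.3.3. Fold changes and exact intervals were computed in Python 3.11.15 with scipy 1.17.1, at 95% confidence, for genes whose counts added up to 10 or more over both libraries. The code for the calls was run on simulated counts that carry counting noise only. Such a run cannot speak for differences between libraries or for the many zeros in *tuft*, and lends the calls no support. With 1 library per genotype, the quasi-likelihood test of edgeR has no residual degrees of freedom, and the paper's program, NOISeq-sim (simulated noise), was not used. Intervals cover counting error only, since there is 1 library per genotype. Reads carry no molecular identifiers and each was counted as independent, so the intervals may be too narrow even for counting error.

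The members and lists were chosen with earlier results of these data known. Named genes are the members, *Tet1*, genes within 10 kb of a member and, per list, the 2 called lower and 2 called higher with the most counts; 1 gene that this rule names is not reported here. Genes named for a count of 0, *Pyy*, *Cer1*, *Foxe3*, *Apoa4*, *Apoc2* and *Pecam1*, were added after their values were seen, as were *En1*, *En2* and *Pax5*. Of the genes within 10 kb, *Otx2os1* and *Paupar* had 1 and 0 counts in *tuft* and 7 and 19 in wild type, and 4 had no symbol in the tables. Positions and promoters came from RefSeq of GRCm38.p6, the build of mm10, and transcript lengths from GENCODE vM1. The alternatives were 5 other scalings, 2 count minimums, 3 call rules and 2 other ways to treat low counts. A median transcript length and a wider window of like levels were added after seeing the data.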

Additional observations from a re-analysis of the deposited data

How the results depend on the processing

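*Emx2*, *Nkx2-1* and *Six3* were called higher and *Rax* and *Hesx1* lower under all 5 other scalings. The scalings moved the median of all genes: relative to TMM the shift on the log2 scale was -0.39 with library totals alone, -0.34 with totals without the genes of highest count and -0.59 when scaled to the pan-neural progenitor list, and under 0.1 with RLE size factors and the upper quartile. The median log2 fold change of the 9 factors, 0.45, became 0.0603, 0.112 and -0.133 under the first 3, the last a reversal, which the shift of all genes by construction brings with it. Of the genes called under TMM 63.2% were lower, against 75.3%, 74.0% and 80.5%. The number of all genes called higher fell to 1420 with the pan-neural scaling.

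With at least 100 counts required, 1 member was called lower, because *Hesx1* has 36 counts. With an interval beyond 4-fold, 1 member was called lower, *Rax*, *Six3* was no longer called higher, and of all genes 2218 were called lower and 970 higher. With an interval that leaves out 1, *Six6* and *Otx2* joined to make 5 members higher and *Pax6* was called lower, and of all genes 7291 were lower and 4827 higher. With median transcript lengths, 2 members in *tuft* and 5 in wild type kept their rank of level per kilobase. In a window of 2-fold, the share of genes of like level with as few counts in *tuft* was 65.3% for *Lhx2* and 33.7% for *Pax6*, and the share with as many was 3.01% for *Nkx2-1*. No paired analysis was possible because there is 1 library per genotype. *Hesx1*, with 36 counts in wild type and 0 in *tuft*, rests on the fewest counts of the members. Of genes of like wild-type count, 55.2% also had 0 in *tuft*.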
